A study of Homo sapiens with 6 samples.

Results

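The SMAD family comprises 8 genes in humans, and all 8 were found by symbol, 1 row each, among the 60835 distinct symbols of the deposited tables. They are the common partner SMAD4, the receptor-regulated SMAD2 and SMAD3 of the TGF-β and activin branch, the receptor-regulated SMAD1, SMAD5 and SMAD9 of the BMP branch, and the inhibitory SMAD6 and SMAD7. Libraries were made from polyadenylated RNA of PANC-1, an established human cell line of pancreatic epithelioid carcinoma. In every library SMAD4 had been knocked out and the cells then transfected with SMAD4, either wild type (WT, 3 libraries) or carrying the R272K substitution (3 libraries), on day 3. No library of knockout cells without a SMAD4 construct was analysed here, so both groups share the knockout and the reintroduction. The labels name no vector, promoter, knockout clone or ligand treatment. They do not say whether replicates were separate cultures, and p-values therefore reflect the spread among these libraries alone, which may be technical.

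SMAD proteins carry signals of TGF-β family receptors to the nucleus. The type I receptor phosphorylates the receptor-regulated SMADs (R-SMADs) on serines at their C-terminus, and these then join SMAD4 and bind DNA with partner factors. SMAD6 and SMAD7 block the receptors or their substrates, and their genes are themselves induced by the pathway, which makes them feedback inhibitors. SMAD4 is a tumour suppressor that pancreatic ductal carcinomas often lose. The arginine replaced in R272K lies in the linker that joins its DNA-binding and its transactivating domain. The series concerns arginine methylation of SMAD4 by the methyltransferase PRMT1. The comparison below asks whether transcripts of the SMAD genes themselves differ between cells given either form.

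The substituted residue is encoded in exon 7 of the 12 exons of the SMAD4-201 transcript (GENCODE release 29). This exon lies at chr18:51058340-51058456 on the plus strand of GRCh38 and codes for part of the linker. It is shown because the substituted codon, the bases 51058366 to 51058368, is where the 2 constructs differ by their labels. The reference exon, 117 bases with that arginine codon in capitals, reads as follows. The bases of the constructs themselves were not analysed here.
SMAD4 exon 7: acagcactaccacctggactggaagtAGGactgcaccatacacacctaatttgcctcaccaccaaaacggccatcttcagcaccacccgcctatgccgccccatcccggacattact

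The classes of the family can be read at the other end of the coding sequence. The last 10 codons before the stop are shown for each member, from the RefSeq-matched GENCODE transcript with the longest coding sequence, since they hold the receptors' phosphorylation site. Capitals mark the last 4 codons where they encode serine, serine, any residue and serine.
SMAD2: tccccttcagtgcgttgcTCAAGCATGTCA
SMAD3: tccccaagcatccgctgtTCCAGTGTGTCT
SMAD1: tcacctcataatcctattTCATCTGTATCT
SMAD5: tcccctctgaaccccataTCTTCTGTTTCA
SMAD9: tctccacataaccccattTCTTCAGTGTCT
SMAD4: atgccgattgcagacccacaacctttagac
SMAD6: tggctggagatcctcctcaacaaccccaga
SMAD7: tgctggctagaggtcatcttcaacagccgg
The 5 R-SMAD sequences end in this pattern, and those of SMAD4, SMAD6 and SMAD7 do not.

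Total counts over distinct symbols ranged from 14776148 to 17706201 per library. Transcripts were tested with edgeR's quasi-likelihood test on all 6 libraries, with Benjamini-Hochberg adjustment over the 15911 genes that passed the expression filter, and those with an adjusted p under 0.05 are referred to as called. Levels are given as CPM, that is counts relative to TMM-adjusted library sizes, and each fold change is R272K relative to WT on the log2 scale. Epithelial and mesenchymal genes of the line were present in every library, with KRT8 at 2237 and 2795 CPM and VIM at 854 and 842 CPM in the WT and R272K means. The keratin genes KRT18 and KRT19 were also present in every library. EPCAM was low, at 3.65 and 4.78 CPM. Another keratin gene of the same marker list, KRT7, was low too, with 372 counts over all 6 libraries. Markers of leukocytes, endothelium, fibroblasts, acinar cells and islets were near 0: the 12 genes together had 21 to 35 counts in the WT libraries and 20 to 32 in the R272K libraries. One WT library, replicate 1, lay apart from the rest, with a first principal component of -31.3. The other WT libraries had -9.56 and -0.135, and the R272K libraries had 11.3 to 15.6. This component therefore also separated the groups.

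All 8 SMAD transcripts passed the filter, and 1 of them, SMAD4, was called. Over all tested genes, 1.21% were called in either direction and 0.528% were called lower. The groups did not overlap for 2 members, SMAD4 and SMAD3, against 21.4% of all tested genes. An unadjusted p under 0.05 was reached by SMAD4, SMAD5 and SMAD9, 3 of 8, against 14.3% of tested genes. The median log2 fold change was 0.08 over the 8 members and 0.00 over all tested genes. SMAD4 apart, the number of members with a positive and with a negative estimate was 6 and 1, and none of these 7 was called by edgeR or limma-voom. DESeq2 called none of the 5 for which it gave an adjusted p, SMAD6 and SMAD9 having none. Without WT replicate 1, 5.36% of tested genes were called, and with each library's trend with gene length removed, 3.89%; SMAD4 was the 1 member called in both.

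**Figure D1:**
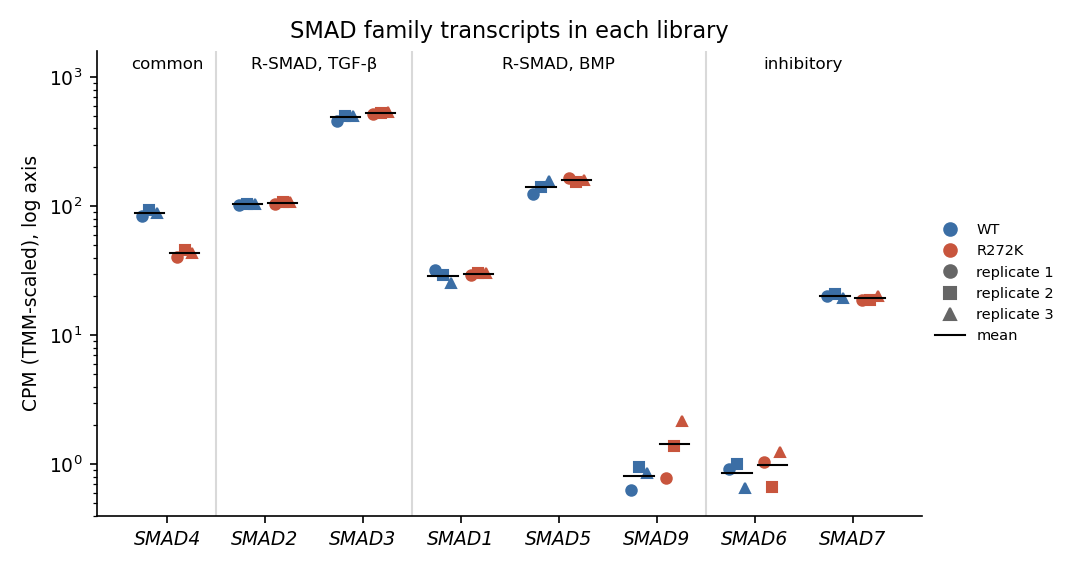
Level of each SMAD transcript in each library, as TMM-scaled CPM on a log axis; points are libraries (blue WT, red R272K, shape by replicate number) and black bars are group means. The 3 R272K libraries of SMAD4 sit between 40.6 and 45.6 CPM, below the WT libraries at 83.4 to 93.6, while the groups lie close together for the other abundant members.

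SMAD4 (ENSG00000141646, chr18:51028394-51085045, plus strand), the gene knocked out and put back, was present in all libraries. Its raw counts were 1462, 1385 and 1358 in WT replicates 1 to 3 and 618, 686 and 669 in R272K replicates 1 to 3. Scaled, these were 83.4, 93.6 and 89.0 CPM with WT and 40.6, 45.6 and 43.6 CPM with R272K. The groups stood well apart, and every WT library was above every R272K library. The R272K mean was 48.8% of the WT mean, with a log2 fold change of -1.03 (95% interval -1.20 to -0.87, edgeR adjusted p = 6.28e-06). SMAD4 ranked 8 of 15911 by p-value and 22 of the 84 lower called genes by fold change. Replicates were tight, with a coefficient of variation of 5.79% in WT and 5.91% in R272K libraries, against 2.67% and 3.9% from counting alone.

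The counts do not separate transcripts of the disrupted gene from those of the construct. In bulk RNA, fewer cells carrying SMAD4 transcript and less transcript per cell cannot be told apart. The amount of SMAD4 transcript and the substitution move together across the 6 libraries, so their parts in any other difference between the groups cannot be told apart. The nearest expressed genes on either side of the SMAD4 locus were not called. ELAC1, 40.3 kb before it, stood at 1.58 ± 0.316 CPM in WT and 1.42 ± 0.132 CPM in R272K libraries (SD, n = 3 each; edgeR adjusted p = 0.836). MEX3C, 89.5 kb after it, stood at 49.0 ± 2.95 and 47.1 ± 2.48 CPM (SD, n = 3 each; edgeR adjusted p = 0.782).

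The R-SMADs of the TGF-β branch were SMAD3, the most abundant family member, and SMAD2. SMAD3 (ENSG00000166949, chr15:67063763-67195173, plus strand) binds DNA directly and drives many of the pathway's targets. Its level was 458, 503 and 501 CPM in WT replicates 1 to 3 and 516, 524 and 538 CPM in the R272K replicates. All R272K libraries were above all WT libraries, and WT replicate 1 was the lowest of the 6. The log2 fold change was 0.11 (95% interval -0.02 to 0.24) and was not called (edgeR adjusted p = 0.439). Without WT replicate 1 it was 0.07 (edgeR adjusted p = 0.354). An expressed transcript, AC087482.1, overlaps the SMAD3 interval at 0.711 and 0.832 CPM in the WT and R272K means, and its part in the SMAD3 counts was not tested.

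SMAD2 (ENSG00000175387, chr18:47808957-47931146, minus strand) shares the TGF-β branch with SMAD3. It was the steadiest member, at 102, 104 and 104 CPM with WT and 104, 107 and 108 CPM with R272K. The ranges overlapped, and the R272K mean was 103% of the WT mean. The log2 fold change was 0.04, with a 95% interval of -0.09 to 0.17 (edgeR adjusted p = 0.798). It became -0.10 when each library's trend with gene length was removed (edgeR adjusted p = 0.727), and SMAD2 has the longest transcript of the family.

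The R-SMADs of the BMP branch were SMAD5, SMAD1 and SMAD9. SMAD5 (ENSG00000113658, chr5:136132845-136188747, plus strand) was the most abundant of them, at 123, 141 and 156 CPM with WT and 166, 155 and 159 CPM with R272K. The WT libraries were spread more widely than the R272K libraries, and WT replicate 3 lay within the R272K range. The log2 fold change was 0.19 (95% interval 0.02 to 0.36), with an unadjusted p of 0.0347 and an adjusted p of 0.304 from edgeR. It was 0.10 without WT replicate 1 and 0.27 without WT replicate 3, neither called (edgeR adjusted p = 0.254 and 0.0787), so its size rested on single WT libraries.

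SMAD1 (ENSG00000170365, chr4:145481194-145559176, plus strand), the other expressed BMP R-SMAD, had 31.9, 29.5 and 25.6 CPM in the WT libraries. The R272K libraries had 29.2, 30.5 and 30.4 CPM, inside the WT range. The log2 fold change was 0.05 (95% interval -0.15 to 0.25, edgeR adjusted p = 0.845), and it was -0.04 without WT replicate 3. SMAD1 and SMAD5 were thus ordered oppositely over the WT libraries, SMAD1 highest and SMAD5 lowest in WT replicate 1.

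SMAD9 (ENSG00000120693, chr13:36844831-36920765, minus strand), the third BMP R-SMAD, was barely detected. It had 11, 14 and 13 reads in the WT libraries and 12, 21 and 33 in the R272K libraries. R272K replicate 1 lay among the WT libraries and R272K replicate 3 was the highest of the 6. The log2 fold change of 0.85 had a 95% interval of 0.01 to 1.68, with an unadjusted p of 0.0481 and an adjusted p of 0.347 from edgeR. Without R272K replicate 3 it was 0.44. The R272K libraries varied by 47.2%, against 21.3% from counting alone.

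**Figure D2:**
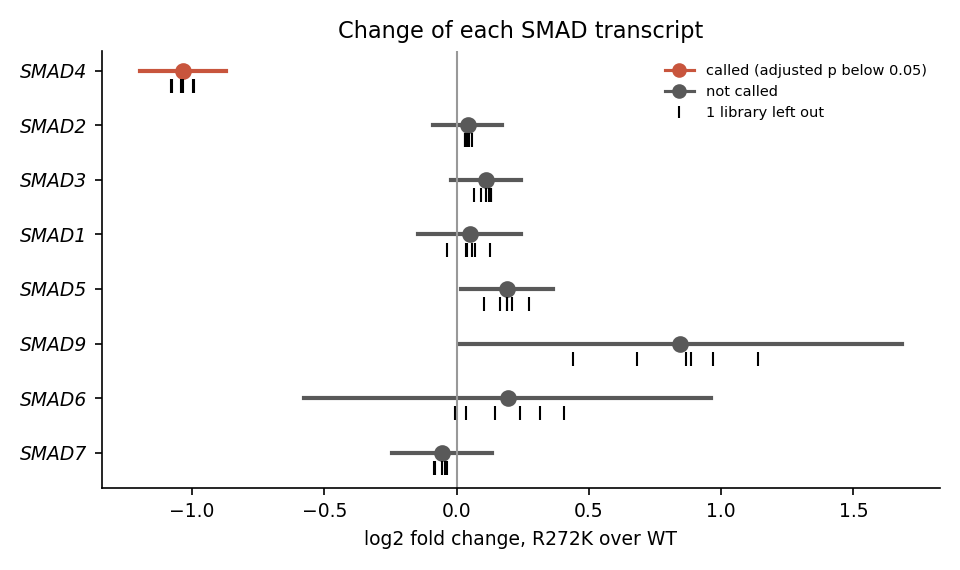
Log2 fold change of each SMAD transcript, R272K over WT, with its 95% interval (bars) and the estimate with each library left out in turn (short black ticks). SMAD4 lies at -1.03 with ticks from -1.08 to -0.99, and the other intervals reach or nearly reach 0.

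The inhibitory SMADs differed in abundance. SMAD7 (ENSG00000101665, chr18:48919853-48950965, minus strand) inhibits TGF-β and BMP receptors and is a common readout of SMAD4-dependent transcription. Its counts were 352, 306 and 295 with WT and 287, 284 and 308 with R272K, or 20.1, 20.7 and 19.3 against 18.8, 18.9 and 20.1 CPM. The ranges overlapped, and the spread within each group, 3.39% and 3.59%, was below that of counting alone. The log2 fold change was -0.06, and its 95% interval of -0.24 to 0.13 leaves out a change as large as that of SMAD4. SMAD6 (ENSG00000137834, chr15:66702236-66782849, plus strand), which acts mainly on the BMP branch, had 16, 15 and 10 reads with WT and 16, 10 and 19 with R272K. These counts overlapped fully. Its interval of -0.58 to 0.96 (log2) shows that only a large change would have been detectable at this depth.

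A SMAD-binding palindrome, GTCTAGAC, which reads the same on both strands, was searched in RefSeq promoter windows (GRCh38.p14, 250 bases before to 50 after a start) because SMAD6 and SMAD7 are feedback genes. All 8 members matched, with 19 windows in all. The motif was in 1 of these, that of SMAD6, and in 0.202% of all 35116 windows of 300 bases. The stretch is shown from chr15:66702198-66702235, plus strand, ending at the base before the start site, with the motif in capitals.
SMAD6 promoter: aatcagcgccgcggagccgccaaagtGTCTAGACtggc
This match describes the letters only, and SMAD6 had at most 19 reads in a library.

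A further 8 rows carry a SMAD name with an antisense or intronic suffix. 3 of them, SMAD1-AS1, SMAD1-AS2 and SMAD5-AS1, had any reads, 25 over all 6 libraries. The strand setting of the counting is unknown, and the part of antisense reads in the SMAD1 and SMAD5 counts was not tested. Among 14 expressed genes that flank the members, 1 was called, TGFBI, 69.0 kb from SMAD5, beside 1.21% of all tested genes. The same gene is counted again among the TGF-β targets below. TGFBI encodes a matrix protein that TGF-β induces, and it rose from 280 ± 5.98 to 366 ± 14.3 CPM (SD, n = 3 each; edgeR adjusted p = 0.0052). It was not called without WT replicate 2, R272K replicate 2 or R272K replicate 3.

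Levels of different members can be compared only per length, for which the deposited TPM were used. In WT libraries the order was SMAD3 at 235 ± 24.0 TPM, SMAD5 at 62.4 ± 10.4, SMAD4 at 31.5 ± 3.19, SMAD1 at 27.3 ± 1.86, SMAD7 at 18.6 ± 1.00, SMAD2 at 9.28 ± 0.605, SMAD6 at 0.513 ± 0.105 and SMAD9 at 0.455 ± 0.110 TPM (SD, n = 3 each). SMAD4 and SMAD1 overlapped in range, as did SMAD6 and SMAD9, and the other neighbours in this order did not. In R272K libraries SMAD4, at 15.5 ± 0.904 TPM, came below SMAD1 (28.7 ± 0.793) and SMAD7 (18.2 ± 0.852), with no overlap between them on this scale. SMAD3 exceeded 95.8% of tested genes in WT libraries, while SMAD4 exceeded 64.5% with WT and 48.0% with R272K.

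The authors' TPM divided by about the longest annotated transcript, recovered from the ratio of count to TPM. That length was 34626 bases for SMAD2 and 8772 for SMAD4, against 3341 for SMAD7. SMAD7 was an exception to the rule, since its longest annotated transcript, also its RefSeq-matched one, has 4428 bases. Dividing instead by the shortest RefSeq-matched transcript with the full coding sequence, 12075 bases for SMAD2 and 1658 for SMAD1, moved SMAD2 above SMAD7. It also moved SMAD1 above SMAD4 in the WT means, while in R272K libraries SMAD1 was above SMAD4 on both scales. Per RefSeq-matched length SMAD2 was 0.848 of SMAD4 with WT and 1.79 with R272K, and on the deposited TPM 0.295 and 0.623. In R272K libraries SMAD7 was 1.17 of SMAD4 on the deposited TPM, but 0.882 per RefSeq-matched length and 0.577 per coding length. SMAD1 was 1.85 of SMAD4 on the deposited TPM and 0.823 per coding length. The places of SMAD1, SMAD2 and SMAD7 relative to SMAD4 therefore depend on the length used. If a construct holds only the coding sequence, 1659 bases for SMAD4, its level per length would be understated by these lengths, and this was not tested.

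The SMAD family's total was 342 to 410 TPM in WT and 395 to 414 TPM in R272K libraries, with WT replicate 1 the lowest. SMAD4 made up 8.14%, 8.40% and 8.0% of it with WT and 3.67%, 4.11% and 3.82% with R272K. The difference of -4.31 percentage points gave an exact two-sided permutation p = 0.1, the smallest that 3 libraries against 3 allow. SMAD3 held 61.0% ± 0.34 with WT and 63.8% ± 0.369 with R272K (SD, n = 3 each; exact permutation p = 0.1). Shares must sum to a fixed total, so a lower SMAD4 share raises the others. The SMAD4 difference was -3.83 points per RefSeq-matched transcript length and -4.36 points per coding length.

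**Figure D3:**
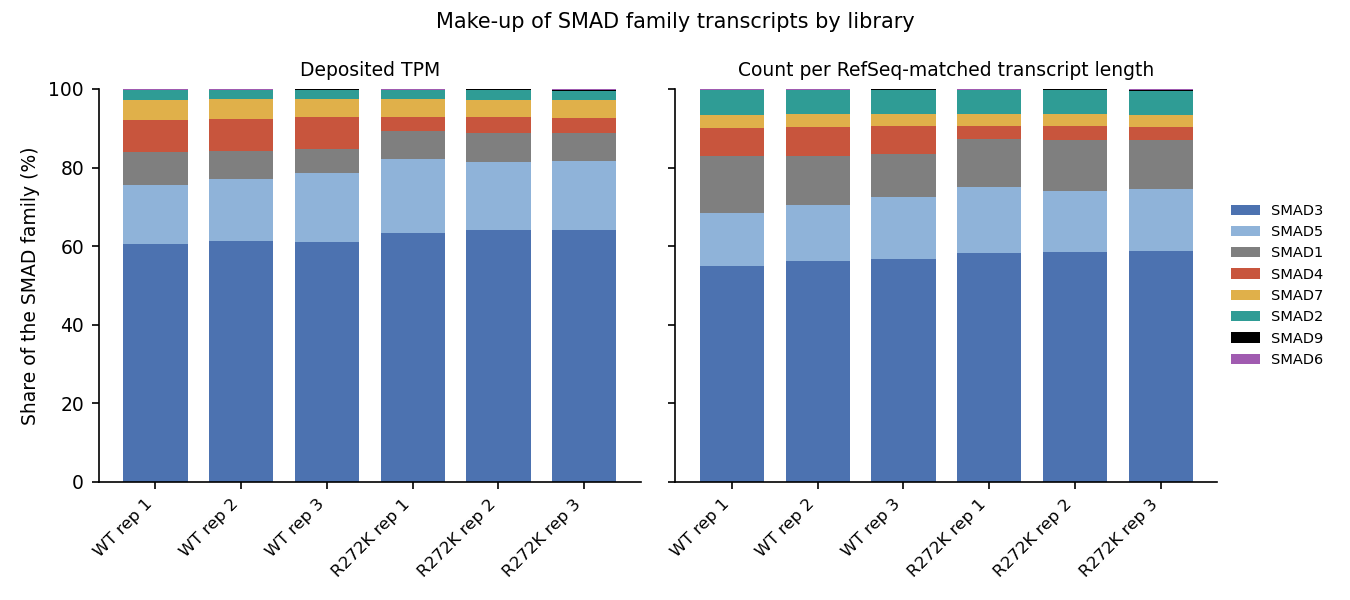
Share of the SMAD family's total held by each member, in percent, in each library; left from the deposited TPM, right from counts divided by the length of a RefSeq-matched transcript. The SMAD4 segment (red) is 8.0% to 8.40% in WT and 3.67% to 4.11% in R272K libraries on the left, the SMAD2 segment is larger on the right, and SMAD6 and SMAD9 show at most as thin lines at the top.

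Ratios of counts within a library do not depend on how libraries are scaled. For each SMAD4 read there were 5.49, 5.37 and 5.64 SMAD3 reads in WT replicates 1 to 3, and 12.7, 11.5 and 12.4 in the R272K replicates. SMAD2 gave 1.22, 1.11 and 1.17 reads per SMAD4 read with WT and 2.56, 2.35 and 2.48 with R272K. The ranges were far apart in both cases, and so were those for SMAD5. The log2 ratio of SMAD4 to each of the other 7 members was lower in all R272K libraries than in all WT libraries. The difference ran from -0.98 against SMAD7 to -1.78 against SMAD9. These 7 ratios share SMAD4 as numerator, so they largely repeat its lower count and are not 7 separate results. Of 11 ratios tested, these 7 and SMAD3 to SMAD2 gave an exact two-sided permutation p = 0.1, the smallest possible, and 0.138 after Benjamini-Hochberg adjustment over the 11.

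Among ratios that leave out SMAD4, SMAD3 to SMAD2 differed by 0.07 (log2), with no overlap between the groups, and by 0.04 without WT replicate 1. SMAD1 to SMAD5, the expressed BMP R-SMADs, differed by -0.14 (exact permutation p = 0.6) and by 0.02 without WT replicate 1. The ratios of SMAD9 to SMAD5 and SMAD7 to SMAD6 rest on few reads. They differed by 0.55 and -0.23 and overlapped between groups (exact permutation p = 0.4 and 0.5).

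**Figure D4:**
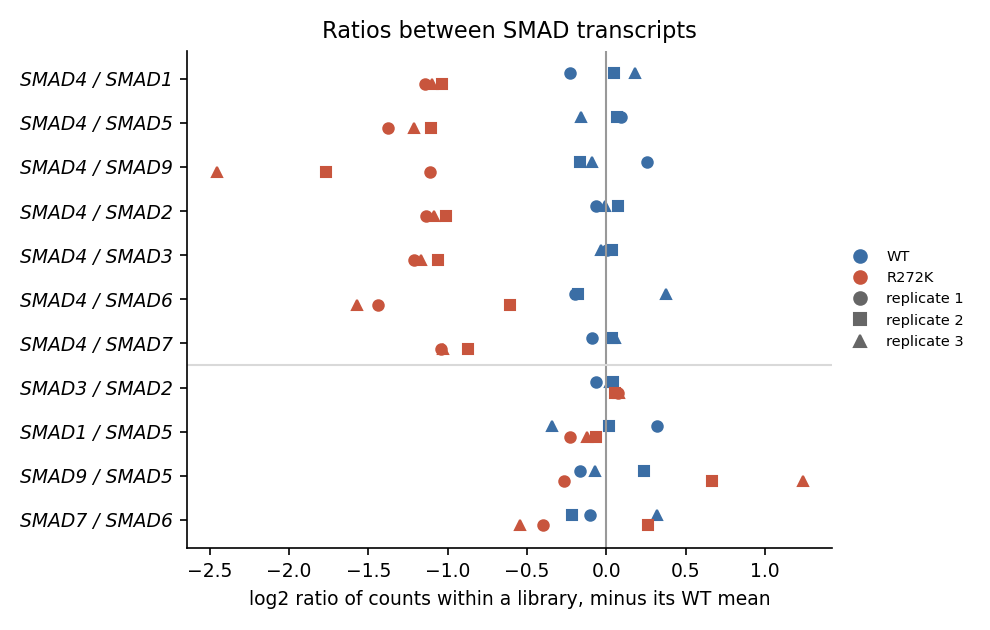
Log2 ratio of the counts of 2 SMAD transcripts within each library, minus that ratio's mean over the WT libraries; blue WT, red R272K, shape by replicate number. The 7 ratios with SMAD4 lie to the left in all R272K libraries, and those among the other members lie nearer to 0, with SMAD9 / SMAD5 spread widely.

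Across the 6 libraries, the 5 genes whose log2 CPM followed SMAD4 most closely, of 9732 with a mean of at least 10 CPM, were FAM104B, CYP1B1, STEAP3, IFIH1 and LTBP4 (Pearson's r 0.996, 0.996, 0.995, 0.994 and 0.993). The libraries fall into 2 groups, so r mostly reflects the group difference and is given as a description. CYP1B1, a cytochrome P450 gene, had 521, 556 and 561 CPM with WT and 343, 349 and 345 CPM with R272K. IFIH1, which encodes the RNA sensor MDA5, had 91.4, 101 and 95.1 CPM with WT and 70.0, 72.9 and 70.2 CPM with R272K. LTBP4, which binds latent TGF-β, had a log2 fold change of -0.20 and was not called (edgeR adjusted p = 0.133).

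The rest of the pathway was followed in 10 lists, which held 125 tested genes. The lists were chosen with earlier results of these data known, so the shares of genes called are a description and not evidence of enrichment. Of the 125 genes 5 were called, 5 higher and 0 lower, or 4% against 1.21% of all tested genes. The median log2 fold change of the 125 was 0.01. That split changed with the processing. Without WT replicate 1, 13 of 126 tested genes were called, 6 higher and 7 lower, beside 5.36% of all genes. With the length trend removed 9 were called, 5 higher and 4 lower, beside 3.89% of all genes, and without WT replicate 3 the calls were 5 higher and 1 lower. Leaving out each of the other libraries gave 2 to 6 called, with 2 without R272K replicate 3 and 3 without WT replicate 2, R272K replicate 1 or R272K replicate 2. BMP5 and COL1A1 were called with each library left out. Among genes that supply or receive the signal, 0 of 14 TGF-β and activin ligands and receptors were called by edgeR. Of the 14, 7 had an unadjusted p under 0.05, in both directions, beside 14.3% of all tested genes. TGFBR1, the type I receptor that phosphorylates SMAD2 and SMAD3, stood at 48.6 ± 5.48 and 57.5 ± 0.613 CPM (SD, n = 3 each; edgeR adjusted p = 0.208). GDF15, a stress-induced ligand of the superfamily, was counted in this list and stood at 708 and 572 CPM (edgeR adjusted p = 0.0754). Whether GDF15 acts through SMAD proteins in these cells was not tested. It was called lower without WT replicate 1, without WT replicate 3 and with the length trend removed. Of 11 BMP ligands and receptors, 6 had an unadjusted p under 0.05 and 1 was called, the ligand BMP5. It rose from 25.7 ± 2.40 to 39.0 ± 0.753 CPM (SD, n = 3 each; edgeR adjusted p = 0.00292). ACVR1, a type I receptor for SMAD1 and SMAD5, was not called (58.5 and 49.8 CPM, edgeR adjusted p = 0.14) but was called lower without WT replicate 1 and with the length trend removed.

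Of the genes that act on or with SMAD proteins, none was called by the test as described. With the length trend removed USP15 and TGFBRAP1 were called lower, and without WT replicate 1 TGFBRAP1, TFE3 and, named after its values were seen, FOXO3 were called lower. The edgeR count was 0 of 20 ubiquitin ligases, deubiquitinases and phosphatases, of which 2 had an unadjusted p under 0.05: USP9X, a deubiquitinase of SMAD4, at 173 and 198 CPM, and the deubiquitinase USP15 at 77.4 and 69.5 CPM. It was 0 of 13 anchors and transport factors (1 at an unadjusted p under 0.05, TGFBRAP1), 0 of 9 corepressors (0 at an unadjusted p under 0.05) and 0 of 18 coactivators and DNA-binding partners (2, TFE3 and CITED2). Of 10 kinases that phosphorylate SMAD linkers, 0 were called and GSK3A had an unadjusted p of 0.0296. Of 9 arginine methyltransferase genes 0 were called, with PRMT5 at an unadjusted p of 0.0481. Over all tested genes, 14.3% had an unadjusted p under 0.05. PRMT1 stood at 197, 169 and 158 CPM with WT and 181, 176 and 167 CPM with R272K, and its 95% interval was -0.17 to 0.17 (log2).

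The target genes of each branch were counted last. Of 15 tested TGF-β targets in the list 4 rose, 0 fell and 11 were not called, beside a background of 0.685% of genes called higher. An unadjusted p under 0.05 was reached by 6 of the 15, beside 14.3% of all tested genes. This list too was chosen with earlier results of these data known, so the background is set beside it as a description only. The type I collagen gene COL1A1 went up from 148 ± 3.91 to 241 ± 11.2 CPM (SD, n = 3 each; log2 fold change 0.70, edgeR adjusted p = 3.51e-05). FN1, which encodes fibronectin, rose from 60.9 ± 7.95 to 91.1 ± 4.24 CPM (edgeR adjusted p = 0.0054), and TGFBI rose as given above. The fourth, PODXL, a sialomucin gene named after its values were seen, rose from 244 ± 18.7 to 306 ± 7.92 CPM (SD, n = 3 each; edgeR adjusted p = 0.0339). Of 9 tested BMP targets 0 were called by edgeR and 1, MSX2, had an unadjusted p under 0.05 (7.17 and 4.62 CPM, edgeR adjusted p = 0.107). The medians were 0.14 for TGF-β targets and -0.09 for BMP targets, and the difference between the lists was not tested. Without WT replicate 1, 5 TGF-β targets were called higher and MSX2 was called lower. Without R272K replicate 3 COL1A1 was the 1 TGF-β target called, and 2 were called without WT replicate 2, R272K replicate 1 or R272K replicate 2. PODXL was lost in all of these, FN1 without R272K replicate 1 or 3, and TGFBI as given above.

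**Figure D5:**
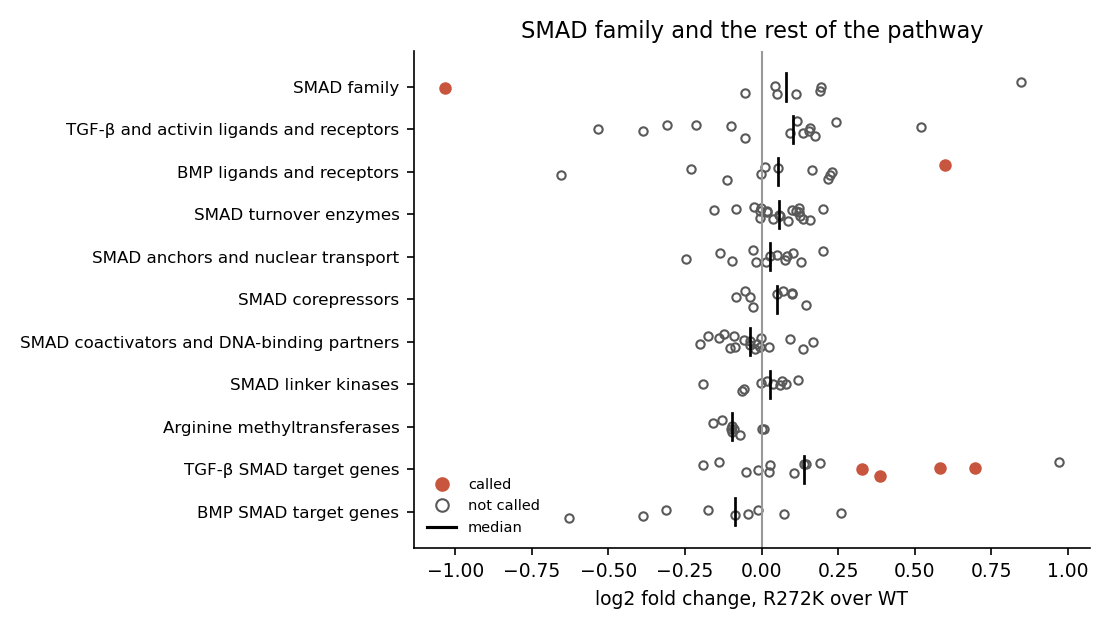
Log2 fold change, R272K over WT, of each tested gene of the SMAD family and of 10 pathway lists; filled red circles were called, open circles were not, and the black line is the list median. SMAD4 lies at -1.03, and the pathway genes called by edgeR with TMM scaling and no correction for length are BMP5 and 4 TGF-β targets, all to the right of 0.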

How the data were processed

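RNA-seq of 6 PANC-1 libraries was analysed. The submitters' processing notes list HTSeq 0.10.0, HISAT2 2.1.0, fastp 0.23.0, SAMtools and the build GRCh38, and no annotation or strand setting. The authors deposited raw counts per symbol and TPM, a length-scaled signal. Of 62710 lines, 1875 repeat a symbol's value, and each symbol was used once; TPM then summed to 1000000. The length behind TPM was recovered from count over TPM and scaled to GENCODE 29, where it lay within 0.02 (log2) of the longest transcript for 73.3% of 34222 symbols.

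Genes passing edgeR's filter (minimum count 10, minimum total 15) were TMM-scaled and tested with the robust quasi-likelihood test, group as the only term. Intervals use the test's F statistic and degrees of freedom. Fits used edgeR 4.0.16, with DESeq2 1.42.0 and limma 3.58.1 as alternatives, in R 4.3.3. Permutation tests enumerated every assignment of the libraries, with numpy 2.4.6 in Python 3.11.15. On simulated counts for this comparison (15911 genes, 50 changed per size), 64% of genes changed 1.5-fold and 90% of those changed 2-fold were recovered, with 9 of 186 calls false. Changed genes were drawn above a minimum mean CPM that SMAD6 did not reach, and no trend with gene length was simulated. These figures therefore do not cover SMAD6 or the length trend of WT replicate 1. All replicate pairs differed beyond counting error, with chi-square over its degrees of freedom at 1.83 or more.

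The members and lists were chosen with earlier results of these data known. Named genes are the members, PRMT1, up to 3 genes per list by smallest p, cell markers, flanking genes and the 5 most like SMAD4. Alternatives were other scalings, filters and tools, a replicate block, each library left out, TPM with a pseudocount of 1 or 0.1, and removal of each library's length trend. Added after seeing the data were that removal without WT replicate 1, other lengths for shares, and leave-one-out ratios and list counts.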

Additional observations from a re-analysis of the deposited data

How the results depend on the processing

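In each of 18 alternatives SMAD4 was the 1 member called, with a log2 fold change of -1.10 to -0.97 (-1.08 to -0.99 over the libraries left out in turn) and adjusted p up to 0.00168, and its share of the family differed by -5.31 to -3.83 percentage points in 10 alternatives. Directions reversed for SMAD1 without WT replicate 3 (-0.036; range -0.036 to 0.13 over libraries left out), for SMAD2 with the length trend removed (-0.10), for SMAD6 without R272K replicate 3 (0.00 to 2 decimals, -0.0043; up to 0.40), and for the SMAD1 to SMAD5 ratio without WT replicate 1 (0.023; from -0.31). None of these was called, and the causes were not tested. The number of genes called, 193, was 474 with no filter, 619 with the length trend removed, 934 with that and without WT replicate 1, and 104 and 101 on TPM with a pseudocount of 1 and 0.1. It ranged from 55, without R272K replicate 3, to 875, without WT replicate 1, with 59, 60 and 84 without R272K replicate 1, R272K replicate 2 and WT replicate 2. Pathway genes called, 5 higher and 0 lower, were 9 (5 higher, 4 lower) with the length trend removed and 14 (7 higher, 7 lower) with that and without WT replicate 1. SMAD9 did not pass a filter of 1 CPM, and DESeq2 gave no adjusted p for SMAD6 or SMAD9. Relative to the mean of the other WT libraries, WT replicate 1 had lower values for longer genes (Spearman's rho -0.395 over 15911 genes, as a description), and 6 of 8 members are longer than the median tested gene; SMAD5 differed there by -0.27 and SMAD1 by 0.21 (log2). No sign was seen that the replicate numbers pair the libraries: deviations of same-numbered libraries correlated at -0.065, -0.0072 and -0.012. These values cannot exclude a pairing. With the number as a block 262 genes were called, SMAD4 at -1.03 (edgeR adjusted p = 6.55e-09). The paired exact permutation p of the SMAD4 share was 0.25, the smallest that this paired test allows. The difference in share, -4.31 points, was fixed by the balanced design. Depth limits SMAD6 and SMAD9, which had 10 to 33 counts per library.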
